A study of Mus musculus with 47 samples.

Results

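A stretch of mouse chromosome 2 from 120 to 130 Mb (mm10 build) was examined gene by gene in single fibres of a fast-twitch hindlimb muscle, the extensor digitorum longus (EDL). Its members were chosen by position and by measured level, namely the genes annotated on chromosome 2 alone with a lowest exon start in this stretch and a mean of at least 1 count per 1000000 gene counts (CPM) over all 47 fibres. The rule kept 80 of the 146 genes that the files place there, out of 10118 genes at that level in the whole series. Of the other 66 genes, 44 had counts below the limit and 22 had none in any fibre. The limit was passed in both genotypes by 76 members, whereas Fbn1, Fgf7, Ncaph and Cep152 passed it through 1 genotype only. The stretch itself was picked with the low Tmem87a values of these fibres already known, so its genotype differences describe these fibres and are not independent evidence about the region.

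Fibres came from FVB/N mice aged 2 to 3 months, 27 from wild type (WT) animals and 20 from C2-/- animals (C2KO here), in which a Neo cassette replaced most exons of Mybpc2. Mybpc2 encodes fast skeletal myosin binding protein C, a thick filament protein of the sarcomere, and lies on chromosome 7, outside the interval. The labels name no Cre, so the allele was not limited to muscle by one. The labels name 3 WT and 2 C2KO mice but tie no fibre to a mouse, so fibres were summed into 5 pools. WT pools 1, 2 and 3 are sequencing runs of 10, 10 and 7 fibres, and the C2KO pools are the fibre-name prefixes 740 and 2445, with 10 fibres each. A pool value is in CPM after TMM scaling, and a fibre value is in CPM of all gene counts of that fibre. The spread behind each p-value is therefore that between pools, which may be technical, and WT pools may share mice.

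Libraries held 7769593 to 14606631 gene counts in WT fibres and 7648762 to 10517887 in C2KO fibres. Mybpc2 was at least 6563 CPM in every WT fibre and at most 47.6 CPM in every C2KO fibre, so no library went against its label. The fast IIb myosin Myh4 took 99.3 to 99.7% of the counts of 4 myosin heavy chain genes (Myh1, Myh2, Myh4 and Myh7) in each fibre. Sequencing run and genotype overlapped in 1 run only, numbered 0092, with 7 WT fibres and 1 C2KO fibre of prefix 740. Beyond that run, genotype and run cannot be told apart.

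Neighbouring genes on a chromosome are usually transcribed from their own start sites, each with its own promoter, but some pairs lie head to head and start from a shared stretch of DNA on opposite strands. The interval holds housekeeping genes of membrane traffic, RNA processing and metabolism beside a few genes known for skeletal muscle. Capn3 encodes the muscle protease calpain-3, whose loss causes a limb-girdle muscular dystrophy, and Zfp106 encodes an RNA-binding zinc finger protein needed for motor units to persist in mice. Tmem87a encodes a multipass membrane protein of the Golgi, and Tmem87b, in the last 2 Mb of the same interval, encodes its closest relative.

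The start-site windows of Tmem87a, of its overlapping neighbour Ganc and of Tmem87b are shown. Ganc starts 220 bases from Tmem87a on the other strand, and each gene of this pair starts within the other. Tmem87b is of the same family as Tmem87a. Of these 3 genes, only Tmem87a had C2KO pools apart from the WT pools. Each window runs 5′ to 3′ on the gene's own strand, from 250 bases before the start site to 50 after it, and was read from RefSeq on GRCm38.p6, the assembly behind mm10. Tmem87a was read from chr2:120404067-120404366 on the minus strand, Ganc from chr2:120403646-120403945 on the plus strand and Tmem87b from chr2:128818053-128818352 on the plus strand. Capitals mark the letters CCGGAAG, a core of the kind bound by ETS family factors, which was searched on both strands.
Tmem87a: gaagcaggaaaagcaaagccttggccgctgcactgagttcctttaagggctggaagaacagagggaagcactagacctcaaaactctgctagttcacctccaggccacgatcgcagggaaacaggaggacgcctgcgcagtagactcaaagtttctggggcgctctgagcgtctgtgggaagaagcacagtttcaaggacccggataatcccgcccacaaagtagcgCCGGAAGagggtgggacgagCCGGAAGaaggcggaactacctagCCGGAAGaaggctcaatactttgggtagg
Ganc: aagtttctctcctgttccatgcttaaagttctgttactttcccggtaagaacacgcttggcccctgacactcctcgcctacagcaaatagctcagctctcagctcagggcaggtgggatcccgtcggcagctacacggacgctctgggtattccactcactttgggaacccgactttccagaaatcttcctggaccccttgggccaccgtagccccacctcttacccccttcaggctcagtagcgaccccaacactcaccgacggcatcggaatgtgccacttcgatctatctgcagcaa
Tmem87b: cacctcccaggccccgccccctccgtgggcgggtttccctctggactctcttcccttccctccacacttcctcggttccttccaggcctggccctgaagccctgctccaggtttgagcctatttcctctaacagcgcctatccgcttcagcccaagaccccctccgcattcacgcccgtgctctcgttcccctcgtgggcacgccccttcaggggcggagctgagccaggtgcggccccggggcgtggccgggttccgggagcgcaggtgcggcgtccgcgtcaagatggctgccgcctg
The Tmem87a window held 3 matches, at bases 228 to 234, 248 to 254 and 272 to 278, around the start site at base 251. The other 2 windows held none. The Ganc window ends before the Tmem87a window begins, so the bases of the Tmem87a matches, which lie within Ganc, are not part of it. At least 1 match was present in 8.86% of all 32851 windows and in 18.6% of the 10004 windows of tested genes at 1 CPM or more. Of the latter windows, 0.53% held at least 3. Windows were found for 71 of the 80 members, 19 of which had a match, and Chchd5 was the other member with 3. These letters are a description of the windows and not evidence of a bound factor.

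Along the interval, differences between C2KO and WT were of mixed direction and mostly small, and no member was called. Calls required a fold over 1.5 and an adjusted p under 0.05 in edgeR's quasi-likelihood test, which 6 of all 12863 tested genes reached (0.0466%). DESeq2 called 8 members, against 1.56% of its genes, and limma-voom called none, against 0.0622%. The 8 were Ehd4, Pla2g4e, Adal, Ppip5k1, Hypk, Casc4, Spata5l1 and Stk35. With C2KO pool 2445 left out, edgeR called 8 members, against 2.62% of its tested genes, Tmem87a among them. The median log2 fold change, C2KO against WT, was -0.076 over the members and -0.0077 over all tested genes with a mean of at least 1 CPM. The log2 fold change was above 0 for 31 members and below 0 for 49, and above 0 for 4901 and below 0 for 5207 of those genes. The median size of the change, without its sign, was 0.25 for members and 0.14 for those genes. It was 0.29 over the 42 genes in the 10 Mb before the interval, 1 of which was called, and 0.15 over the 41 genes in the 10 Mb after it.

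Members were also read by whether the pools kept apart. Both C2KO pools lay above all 3 WT pools in 16 of 80 members (20%) and below them in 22 (27.5%), against 13.1% and 14.5% of all tested genes. Over the 76 members that passed the CPM limit in both genotypes, 14 were above and 22 below. An unadjusted p under 0.05 was reached by 26 members, 32.5%, against 10.8% of all tested genes with a mean of at least 1 CPM. Fgf7 and Ncaph, which passed the limit through C2KO alone, are among the 26. Over the 76 members it was 24 (31.6%), against 10.0% of all tested genes that passed in both genotypes. The share was 23.8% in the 10 Mb before the interval, 9.76% in the 10 Mb after it and 16.8% on the rest of chromosome 2. In the 10 Mb before the interval, 7 of 42 genes were above and 9 below, and in the 10 Mb after it 3 of 41 were above and 9 below. The shares over the 732 genes on the rest of chromosome 2, both flanks included, were 13.8% above and 17.8% below. Whether the interval differs from the rest of the genome was not tested, since its genes were chosen with these results known and are not replicates.

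**Figure D1:**
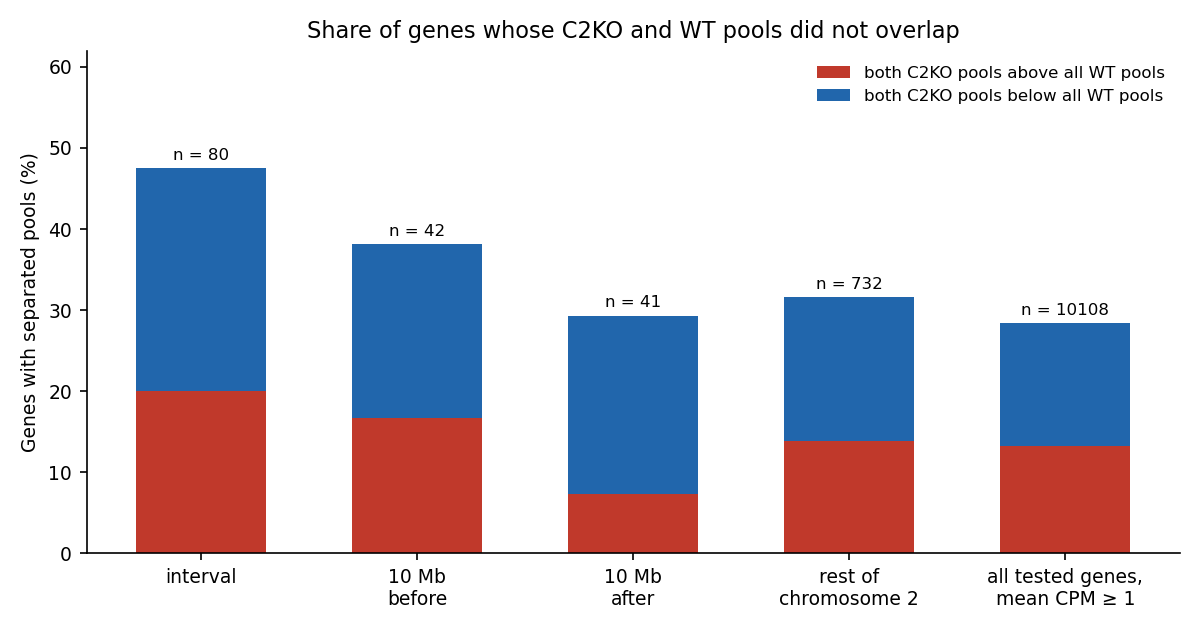
Bars give the percentage of tested genes (vertical axis) whose 2 C2KO pools both lay above (red) or both lay below (blue) all 3 WT pools, with n the number of genes in each set on the horizontal axis. The interval reached 20% above and 27.5% below, and all tested genes with a mean of at least 1 CPM reached 13.2% above and 15.2% below.

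Separated members were spread along the interval. Their pooled share was larger in its first 2 Mb than in the rest, but it did not peak there. Of the 33 members in that stretch, 18 had separated pools (54.5%) and 15 had an unadjusted p under 0.05. Of the 47 members beyond it, 20 were separated (42.6%) and 11 had such a p. Both counts include Fgf7 and Ncaph, which passed the CPM limit through C2KO alone. By 1 Mb window with at least 5 members, the separated share ran from 16.7% to 61.5%. The windows with these lowest and highest shares both lay beyond the first 2 Mb. Direction changed often along the way. The longest unbroken stretch of 1 sign was the 6 members from Ttbk2 to Lcmt2, all below 0, and medians per 1 Mb window with at least 5 members ran from -0.12 to 0.012. The widest gap between the starts of neighbouring members, 1.32 Mb, lay between Sqrdl and Sema6d.

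**Figure D2:**
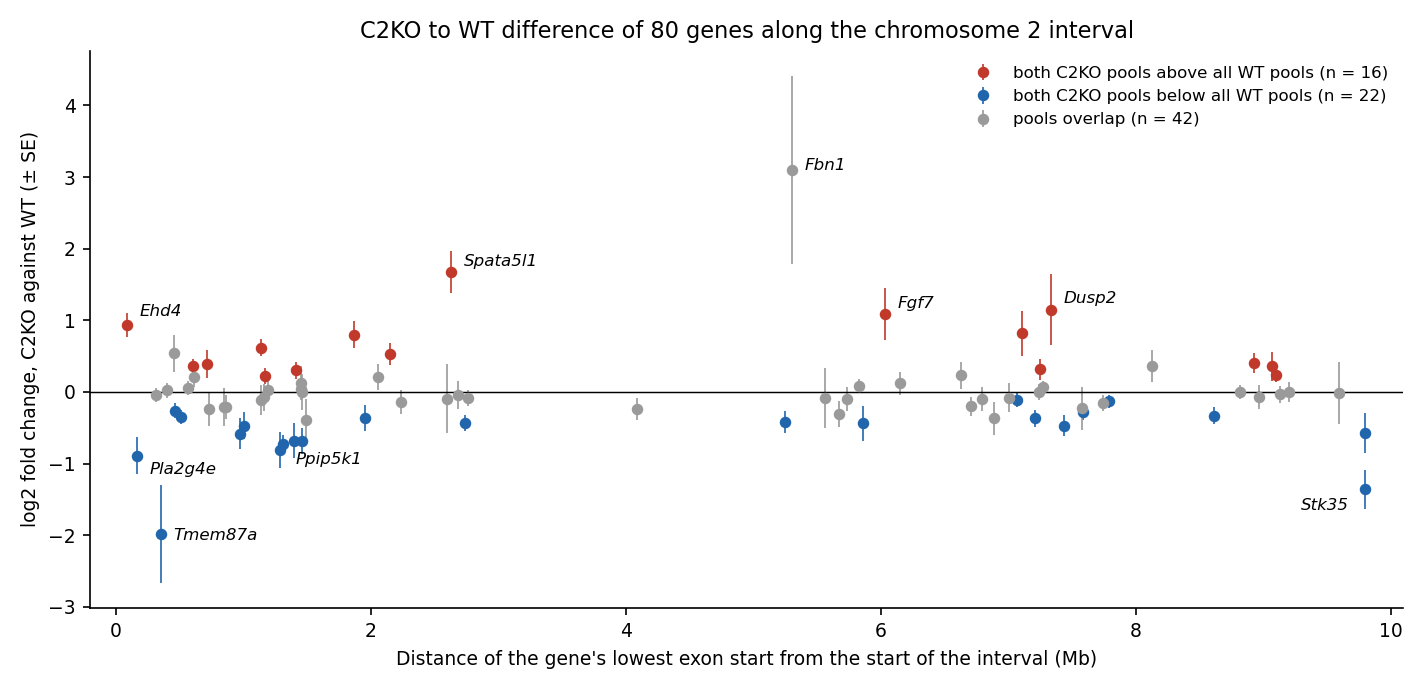
Each point is 1 member at its distance in Mb from the start of the interval (horizontal axis), with its log2 fold change of C2KO against WT and its standard error (vertical axis), coloured by whether both C2KO pools lay above (16 red), below (22 blue) or among (42 grey) the WT pools. Members above and below 0 are mixed along the interval, with Tmem87a lowest at -1.98. Fbn1 is highest at 3.10, but it passed the CPM limit through the C2KO fibres alone and its pools overlapped. Among members that passed the limit in both genotypes, the highest value was 1.67.

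Tmem87a (chr2:120355309-120404116, minus strand) showed the lowest value of the interval. WT pools 1, 2 and 3 held 70.4, 77.5 and 68.1 CPM, and the C2KO pools held 31.4 CPM in 2445 and 5.14 CPM in 740. The C2KO pools were both below the WT pools, and they were also far from each other. Single WT fibres ran from 52.9 to 97.3 CPM with a median of 73.4, and single C2KO fibres from 3.01 to 38.8 with a median of 15.7. No C2KO fibre reached the lowest WT fibre, which held for 1 of 80 members and for 0.0233% of all tested genes. The log2 fold change was -1.98 ± 0.68 (SE, 3 WT and 2 C2KO pools), with p = 0.0253 and an edgeR adjusted p of 0.443, so the gene was not called. With pool 740 as the sole C2KO pool it was -3.80 (adjusted p = 0.001), and with pool 2445 as the sole pool -1.20 (adjusted p = 0.0556). In each of these tests the C2KO arm is 1 pool, so the spread came from the WT pools alone.

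The separation of the C2KO prefixes was itself large. The ranges within a prefix were narrow, 3.01 to 8.96 CPM with a median of 4.97 in 740 and 22.4 to 38.8 with a median of 30.0 in 2445. Every fibre of 740 was below every fibre of 2445 for Tmem87a and for Sord, 2 of 80 members, against 0.14% of all tested genes in that direction. In the test of 740 against 2445, with the WT pools in the fit, Tmem87a fell by 2.61 ± 0.167 on the log2 scale (edgeR adjusted p = 0.00823) and was the only member called, against 0.14% of all tested genes. Each prefix is 1 pool, so the spread behind this test came from the WT pools alone. The adjusted p rose above 0.05 without WT pool 2 (0.0506) and without WT pool 3 (0.0884), with log2 values of -2.61 each.

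The difference between prefixes held within a sequencing run. In the run that held both prefixes, 6 fibres of 740 spanned 3.92 to 8.96 CPM and 10 fibres of 2445 spanned 22.4 to 38.8. With pool 740 cut to its fibres of that run, the log2 difference was -2.56. That fit still held the WT pools of other runs and 1 pool per prefix, so it measured no spread between fibres. The 3 fibres of 740 in another run held 4.54, 5.4 and 6.43 CPM. In run 0092 the single C2KO fibre held 3.01 CPM and the 7 WT fibres 59.1 to 79.1. The paper describes its EDL fibre RNA data as coming from male mice. Fibres of 740 all carried counts of Y-linked genes, but fibres of 2445 carried Xist instead. Among WT fibres, 15 with Y-linked counts spanned 61.4 to 97.3 CPM of Tmem87a (median 79.2) and 11 with Xist counts spanned 52.9 to 74.9 (median 63.8), and 1 fibre fell in neither set. Prefix and sex-linked counts cannot be told apart in the C2KO fibres, and the part of sex was not tested.

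Ganc (chr2:120403896-120460852, plus strand), which encodes the neutral alpha-glucosidase C, starts 220 bases from Tmem87a on the other strand, and the exons of both genes share 212 bases. Its WT pools held 26, 26.3 and 23.1 CPM, and its C2KO pools 24.5 in 2445 and 26.7 in 740. The pools overlapped, with a log2 fold change of 0.025 ± 0.105. Fibres spanned 14.6 to 34.5 CPM in WT and 17.5 to 33.5 in C2KO. The family relative Tmem87b (chr2:128818303-128854261), taken up after its values were seen, was also alike in both genotypes at 19.5 ± 0.702 CPM in WT and 19.5 ± 1.31 in C2KO pools (mean ± SD, n = 3 and 2), with a log2 fold change of -0.0049 ± 0.0973.

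**Figure D3:**
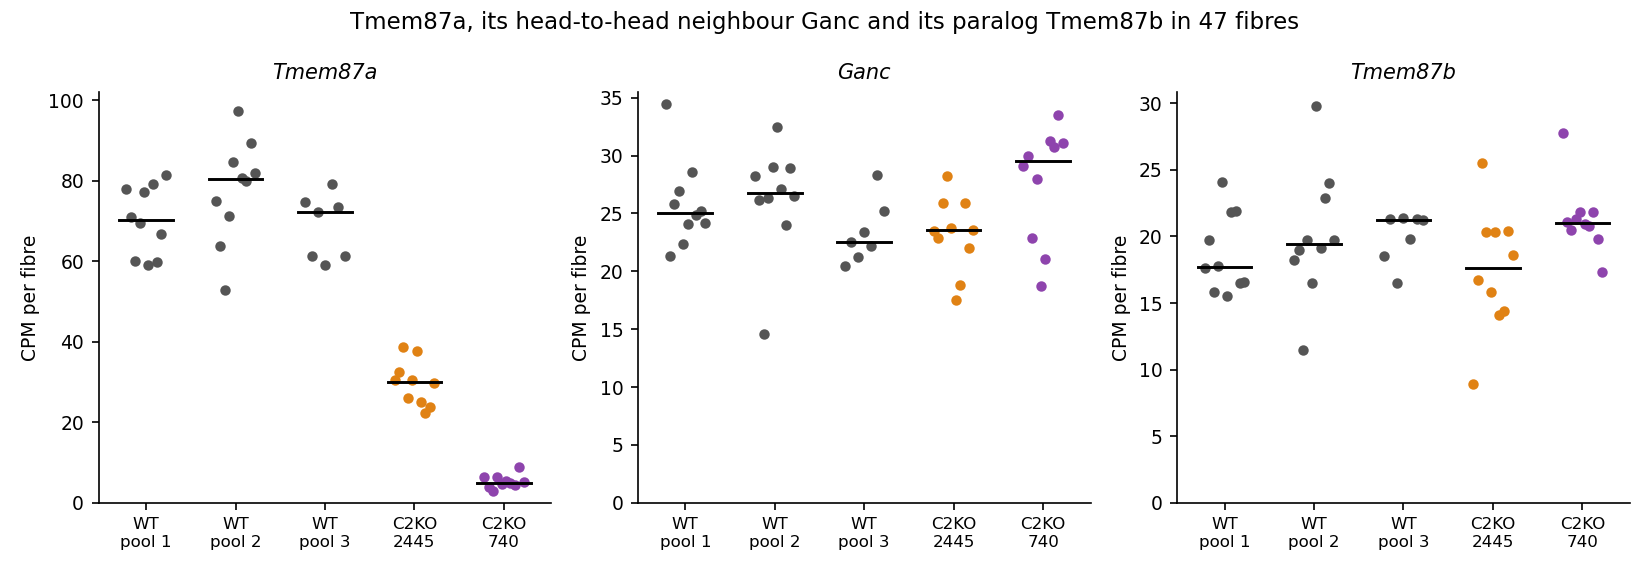
Points are CPM of single fibres (vertical axes, from 0) in the 3 WT pools and the 2 C2KO pools, and black lines are pool medians. Tmem87a medians stood at 70.2, 80.3 and 72.3 CPM in the WT pools, at 30.0 in 2445 and at 4.97 in 740, while the points of Ganc and Tmem87b overlapped between genotypes.

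The genes on either side of Tmem87a were of mixed direction. Ehd4 (chr2:120089487-120154575), the first member of the interval, encodes an ATPase of endocytic recycling. It held 71.9, 50.0 and 63 CPM in the WT pools and 109 and 128 CPM in 2445 and 740. Both C2KO pools were higher, with a log2 fold change of 0.94 ± 0.166 (p = 0.00106, edgeR adjusted p = 0.298). Single fibres overlapped widely, from 34.6 to 151 CPM in WT and from 33.8 to 312 in C2KO. In the run with both prefixes, the 740 fibres had a median of 46 CPM and the 2445 fibres one of 89.3, and the log2 difference of 740 against 2445 was -0.28 in that run alone, against 0.23 over all runs.

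Pla2g4e (chr2:120166412-120245335) encodes a calcium-dependent enzyme that makes N-acyl-phosphatidylethanolamines. It was lower in both C2KO pools, with 105, 109 and 95.1 CPM in the WT pools, 72.6 in 2445 and 38.5 in 740. As with Tmem87a, pool 740 was the lower of the pair, with a log2 difference of -0.92 ± 0.151 (edgeR adjusted p = 0.134). WT fibres spanned 87.1 to 128 CPM, the 740 fibres 20.4 to 55.7 and the 2445 fibres 53.6 to 112. A single fibre of 2445, at 112 CPM, lay within the WT range, and the next highest stood at 75.1. That same fibre was also the highest of its pool for Hypk (84.6 CPM) and for Adal (30.6), but not for Tmem87a (30.4). The log2 fold change of Pla2g4e against WT was -0.89 ± 0.258 (edgeR adjusted p = 0.413), and in run 0092 the C2KO fibre held 20.4 CPM against 87.1 to 107 in WT.

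Farther along, values moved back toward WT and then apart again. Vps39, a subunit of the tethering complex that brings late endosomes to lysosomes, had a log2 fold change of -0.038 ± 0.0985, with overlapping pools. On the other side of Tmem87a, beyond Ganc, 4931402G19Rik was at 2.81 ± 0.281 CPM in WT and 4.09 ± 1.44 in C2KO pools, which overlapped. Capn3 held 140.2, 148 and 123 CPM in the WT pools and 118 and 110.2 in 2445 and 740, with a log2 value of -0.26 ± 0.107 (edgeR adjusted p = 0.48). Both C2KO pools were below the lowest WT pool, at 123 CPM.

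Of the other members with lower C2KO pools, Stk35, Ppip5k1 and Hypk had the largest differences among those with a mean of at least 10 CPM. Stk35 (chr2:129800517-129832285), a serine/threonine kinase gene and the last member of the interval, held 30.0, 17.4 and 19.3 CPM in the WT pools and 9.86 and 7.44 in 2445 and 740. Its log2 fold change was -1.36 ± 0.272 (p = 0.00209, edgeR adjusted p = 0.355). WT fibres ranged from 8.26 to 58.8 CPM and C2KO fibres from 5.13 to 13.2, so the genotypes overlapped and WT fibres varied far more.

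Ppip5k1, an inositol pyrophosphate kinase gene, had the smallest unadjusted p of the interval. It held 55, 63.4 and 61.8 CPM in the WT pools and 39.1 and 34.1 in 2445 and 740, a log2 fold change of -0.72 ± 0.115 (p = 0.000638, edgeR adjusted p = 0.242). With fibres as replicates and run as a covariate it was -0.16 (edgeR adjusted p = 0.884). Both prefixes were alike, with medians of 37 and 34.9 CPM. The C2KO fibre of run 0092, however, held 54.1 CPM and lay inside the 47.4 to 82.1 CPM of the WT fibres of that run. Exons of Ppip5k1 share 272 bases with Map1a on the other strand, and Map1a was lower too, at -0.81 ± 0.249.

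Hypk, whose product is a small chaperone-like partner of the N-terminal acetyltransferase NatA, held 85.1, 94.5 and 83.1 CPM in the WT pools, 65.2 in 2445 and 43.4 in 740. Pool 740 was again the lower, and the log2 fold change against WT was -0.69 ± 0.181 (edgeR adjusted p = 0.412). Smaller differences of the same direction were seen in Fahd2a (-0.47 ± 0.144), the cyclin D1-binding gene Ccndbp1 (-0.47 ± 0.188), Bloc1s6 (-0.43 ± 0.11), a subunit of a lysosome-related organelle complex, the spliceosomal helicase gene Snrnp200 (-0.37 ± 0.118) and Zfp106 (-0.35 ± 0.102). Their edgeR adjusted p-values lay between 0.412 and 0.473. Pool 740 was the farther from WT in Ccndbp1 (17.8 CPM, 27.3 in 2445 and 28.8 to 32.5 in WT) and in Fahd2a (12.8, 17.3 and 20.6 to 21.4), and without that pool the log2 values were -0.19 and -0.27. Pool 2445 was the farther in Snrnp200, at -0.24 without it.

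Among members with higher C2KO pools, Dusp2, Ehd4, Adal and B2m led at a mean of at least 10 CPM. Dusp2, a phosphatase gene that switches off mitogen-activated kinases, held 129.9 and 146 CPM in 2445 and 740 and 111, 32.1 and 42.6 in the WT pools. WT pool 1 lay close to the C2KO pools, and the log2 fold change of 1.15 ± 0.495 had an edgeR adjusted p of 0.493. Single fibres ran from 7.02 to 369 CPM in WT and from 21.3 to 381 in C2KO, so the genotypes overlapped over nearly their whole range.

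Adal, which encodes a deaminase of N6-modified adenosine monophosphate, was steadier. Its WT pools held 14.5, 16.7 and 15.8 CPM and its C2KO pools 21.8 and 26.4 in 2445 and 740, a log2 fold change of 0.62 ± 0.123 (p = 0.002, edgeR adjusted p = 0.355). Adal starts 270 bases from Lcmt2 on the opposite strand and shares 239 exon bases with it, and Lcmt2 had overlapping pools and a value of -0.11 ± 0.205. Smaller higher values were found for the leucine-rich repeat gene Lrrc57 (0.36 ± 0.103), the endosomal protein gene Tmem127 (0.32 ± 0.146), the protein disulfide isomerase gene Pdia3 (0.30 ± 0.119), the RNA polymerase I subunit gene Polr1b (0.24 ± 0.103) and Tubgcp4 of the gamma-tubulin complex (0.22 ± 0.114). The edgeR adjusted p-values of these 5 lay between 0.413 and 0.559. Pool 740 was the farther from WT in Tmem127 (19.6 CPM in 740, 14.6 in 2445 and 13.1 to 14.4 in WT) and in Pdia3 (45, 37.5 and 31 to 35.5). Without that pool the log2 values were 0.092 and 0.16. For Pdia3 the highest fibre of 740 stood at 111 CPM, while fibre medians were 37.3 in 740, 36.1 in 2445 and 33 in WT.

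**Figure D4:**
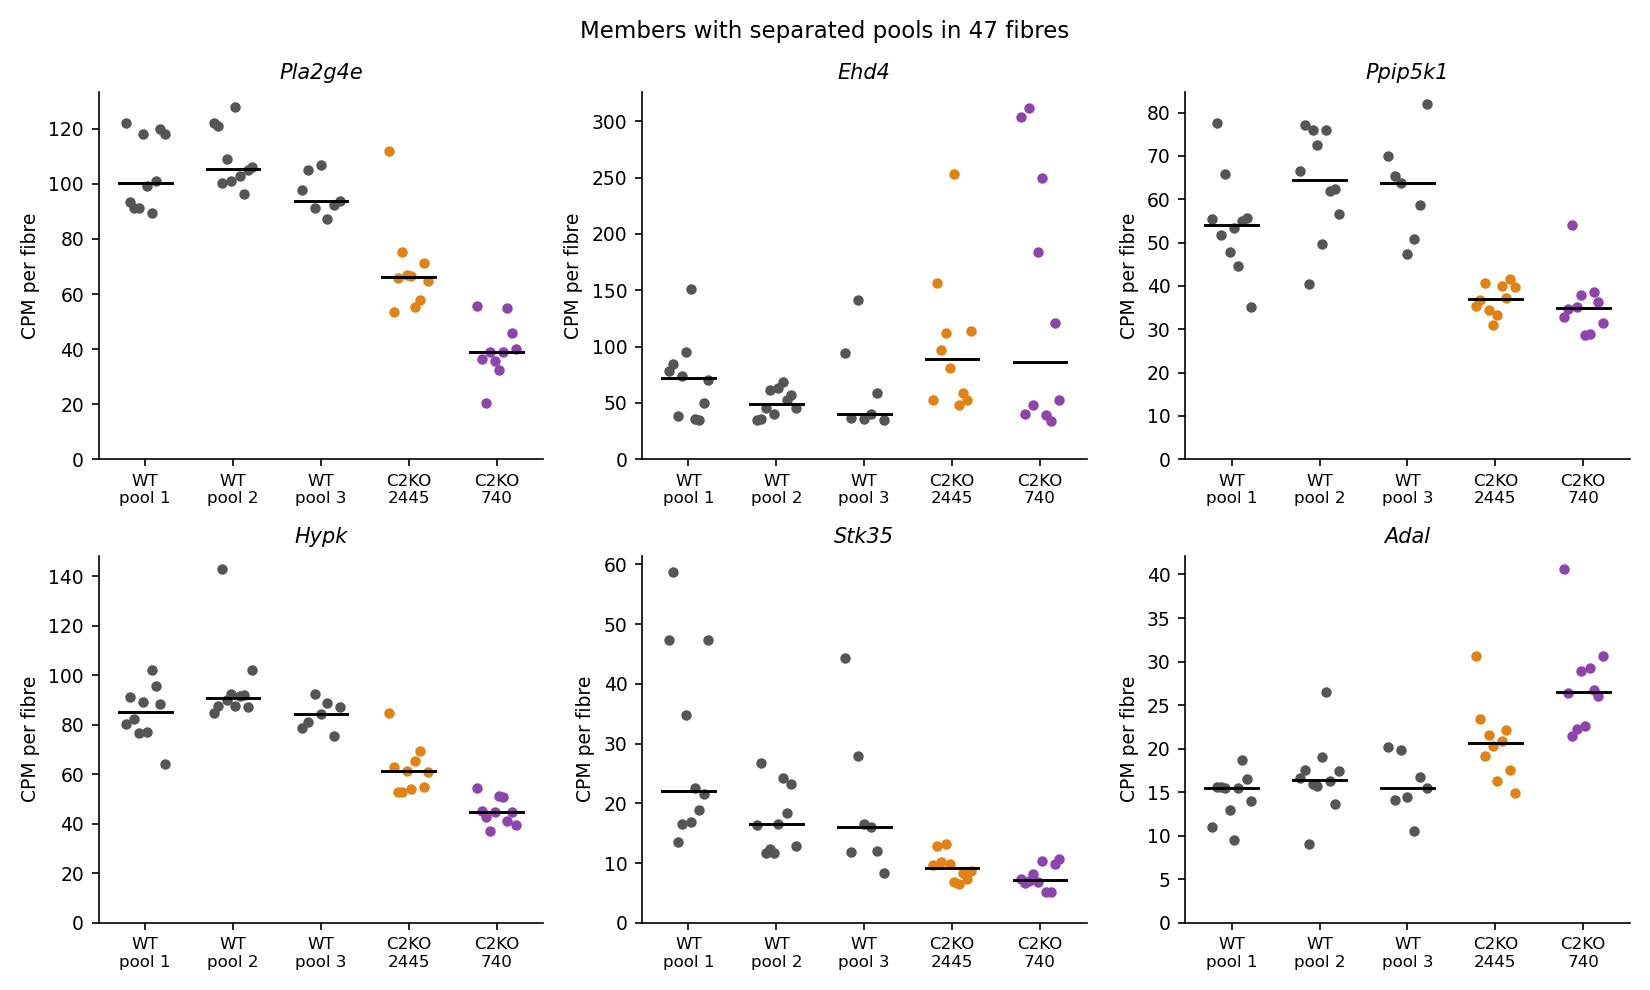
Points are CPM of single fibres (vertical axes, from 0) of 6 members in the 3 WT and 2 C2KO pools, and black lines are pool medians. Pla2g4e and Hypk step down from WT through 2445 to 740, Ppip5k1 and Stk35 were low in both C2KO pools, and Ehd4 fibres of both genotypes overlapped.

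Members with low counts held some of the largest fold changes. Spata5l1, Casc4, Fgf7 and Fbn1 are named here after their values were seen. Spata5l1, an AAA ATPase gene of ribosome maturation, was at 1.7, 1.29 and 1.22 CPM in the WT pools and at 3.37 and 5.6 in 2445 and 740, a log2 fold change of 1.67 ± 0.293 (p = 0.00105, edgeR adjusted p = 0.298). Casc4 was at 3.05, 3.37 and 4.13 CPM in the WT pools and at 5.99 and 6.22 in the C2KO pools, at 0.80 ± 0.184. Near the CPM limit, Cep152 (mean 1.01 CPM) and Ncaph (1.18) were just inside it, and 1810024B03Rik (0.692) and Wdr76 (0.515) just outside. By position, Mapkbp1 was the last gene before the interval and Snrpb the first after it.

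Each C2KO pool was also set against the mean of the WT pools. Among the 38 members with separated pools, 740 lay farther from WT than 2445 in 26 (68.4%), against 54.9% of the 2878 separated genes with a mean of at least 1 CPM. The median distance from WT, on the log2 scale, was 0.59 in 740 and 0.41 in 2445. Tmem87a had the widest gap of the 38, at -3.81 in 740 and -1.20 in 2445, followed by Pla2g4e at -1.42 and -0.50. Others kept close, with Map1a at -0.78 and -0.83 and Casc4 at 0.82 and 0.77.

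**Figure D5:**
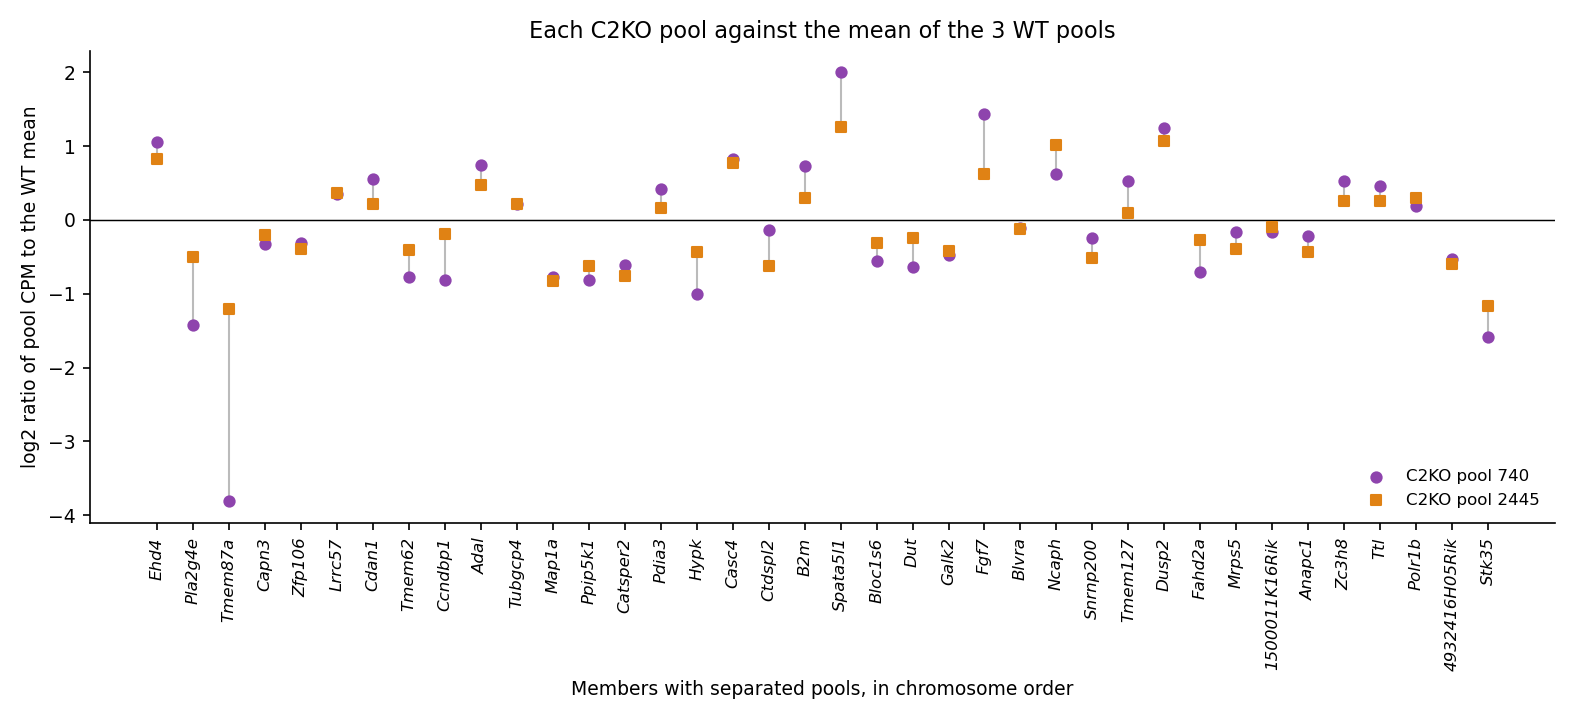
For each of the 38 members with separated pools, in chromosome order on the horizontal axis, the log2 ratio of pool CPM to the WT mean (vertical axis) is given for 740 (purple circles) and 2445 (orange squares). The 740 circle is farther from 0 in 26 members, most of all in Tmem87a.

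Sord, sorbitol dehydrogenase, was apart between the C2KO prefixes but not between genotypes. The 740 fibres spanned 41.2 to 65.9 CPM and the 2445 fibres 66.8 to 87.8, while WT fibres spanned 52.8 to 102 and so overlapped both. The value for 740 against 2445 was -0.56 ± 0.142 (edgeR adjusted p = 0.246). An unadjusted p under 0.05 in that comparison was reached by 14 members (17.5%), against 11.2% of all tested genes with a mean of at least 1 CPM.

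The single C2KO fibre of run 0092 allowed a comparison within 1 run. Of the 38 members with separated pools, this fibre lay beyond all 7 WT fibres of the run on the same side in 20, inside their range in 17, and beyond them on the opposite side in 1, Tubgcp4. The share on the same side was 52.6%, against 36.6% of the 2878 separated genes with a mean of at least 1 CPM. The fibres compared are part of the pools that chose the 38 members, so the agreement in side is not independent of that choice. Ehd4, Pla2g4e, Tmem87a, Capn3, Lrrc57, Adal, Hypk, Bloc1s6, Dusp2 and Stk35 were among the 20. A single fibre carries no replicate error, so these are positions and not tests.

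Abundance differed widely between members. Zfp106 was the most abundant at a mean of 584 CPM, followed by Serf2 (178), Stard7 (129), Capn3 (128) and 1500011K16Rik (106), which encodes the mitochondrial micropeptide mitoregulin. Per kb of exon, the order was different, with mean levels of 130.2 CPM per kb for 1500011K16Rik, 122 for Hypk, 64.2 for Zfp106, 58.8 for Dusp2, 55.9 for Serf2, 41.5 for Stard7 and 36.7 for Capn3. Stard7, a carrier of phosphatidylcholine to mitochondria, and Serf2 had overlapping pools, at 0.069 ± 0.0818 and 0.037 ± 0.108. The members together took 0.282 to 0.294% of all counts in the WT pools, 0.25% in 2445 and 0.271% in 740.

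By role, no list had a called member in the genotype test. The counts below are of members with separated pools, which 13.2% of all tested genes with a mean of at least 1 CPM showed in the higher and 15.2% in the lower direction. Of 13 members of Golgi, endosome and lysosome traffic, 3 were higher and 2 lower in both C2KO pools, with a median log2 fold change of -0.038. Of 7 members of the list named ubiquitin and proteolysis, none was higher and 2 were lower, with a median of -0.21. The lower members were the protease gene Capn3 and Hypk, whose product is the chaperone-like NatA partner described above. Of 10 members of RNA processing and translation, 1 was higher and 3 lower (median -0.11). Of these 10 values, 8 were below 0, Snrnp200 and Zfp106 among them. Values below 0 were held by 5207 of the 10108 tested genes with a mean of at least 1 CPM.

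The 11 metabolic enzymes had 2 higher and 5 lower members (median -0.11), and Adal and Pdia3 were the higher ones. The 13 genes of transcription and signalling had 1 higher and 4 lower members (median -0.23), with Stk35 lowest and Dusp2 highest, while the cation channel kinase gene Trpm7 was at -0.097 ± 0.162. Of the 7 genes of genome upkeep and cell division, Ncaph and Cep152 each passed the CPM limit in 1 genotype only. The other 5 had 2 higher and none lower (median 0.21), and Trp53bp1, which binds damaged chromatin, was at 0.032 ± 0.132. The 16 members in no list had 4 higher and 6 lower. Usp8 and Sppl2a stand in 2 lists each. These medians compare with -0.0077 over all tested genes with a mean of at least 1 CPM.

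The immune and matrix list had 5 members, but Fgf7 and Fbn1 passed the CPM limit through the C2KO fibres alone, with WT means of 0.927 and 0.714 CPM. Of the other 3, B2m was higher in both C2KO pools and none was lower, with a median log2 fold change of -0.018. Levels of B2m, Fgf7, Fbn1 and Sirpa in pool 740 moved with markers of connective tissue cells. The summed level of 10 fibroblast markers was 835 CPM in 740 and 29.4 to 73.5 CPM in the other 4 pools, and 1 fibre of 740 reached 5574 CPM, with the next at 1202. All 10 markers had counts in every pool but WT pool 3, where 6 had. The summed level of 8 endothelial markers was also highest in 740, at 16.4 CPM against 0.593 to 1.07 in the other pools. B2m, the light chain of class I major histocompatibility molecules, was at 15.6, 14.1 and 17.4 CPM in the WT pools and at 19.3 and 25.9 in 2445 and 740 (0.53 ± 0.159, edgeR adjusted p = 0.416). The matrix gene Fbn1 was at 11.3 CPM in 740 and 3.86 without that 1 fibre, and at 0.122 to 1.71 CPM in WT and 0.826 in 2445. It had no count in 15 of 27 WT fibres.

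Fgf7, a growth factor of connective tissue cells, went from 2.53 to 1.46 CPM in 740 without the same fibre, and B2m from 25.9 to 22.2. Sirpa, an inhibitory receptor gene of myeloid cells, went from 1.9 to 0.982 CPM there and had a log2 fold change of -0.018 ± 0.435 with overlapping pools. Sema6d, a semaphorin gene, was at -0.24 ± 0.151. Tmem87a in 740 was 5.14 CPM with that fibre and 5.2 without it, and Pla2g4e 38.5 and 38.6. The number of separated members was 38 with the fibre and 38 without it. More attached cells and more RNA per attached cell cannot be told apart, and the part of such cells in the B2m, Fbn1, Fgf7 and Sirpa values was not tested.

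Some members could not be counted independently of their neighbours. Exon bases were shared across strands by 9 pairs of members, from 127 bases in Lrrc57 and Haus2 to 2130 in Tubgcp4 and Trp53bp1. Reads were counted by strand, but no source used here says whether the kit preserved it, which leaves counts in the shared bases uncertain. Some pairs had unlike values, as Tmem87a and Ganc did. Others were alike, such as Stk35 with 4932416H05Rik (-1.36 and -0.57, 386 shared bases) and Ubr1 with AV039307 (-0.21 each). Mfap1a and Mfap1b are near-identical copies counted from uniquely placed reads alone, and their values of -0.39 ± 0.291 and -0.00035 ± 0.256 are uncertain.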

How the data were processed

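RNA of 47 single EDL fibres was analysed. The authors deposited raw counts per gene, 1 table per fibre. Read pairs were assigned to mm10 exons with featureCounts 1.5.2 (strand option 2), per the file headers. CASAVA 1.4, FastQC 0.11.2 and HISAT2 2.0.5 are named in the submitters' processing notes. Counts were summed into 5 pools and tested with edgeR 4.0.16 (R 4.3.3) by glmQLFit and glmQLFTest, with TMM, filterByExpr and Benjamini-Hochberg adjustment over 12863 genes. Role lists and the members were chosen with earlier results of these data known. Named members were those called, up to 10 per direction with separated pools and at least 10 CPM, the 5 most abundant, the 2 most abundant of each role list, the 3 on either side of Tmem87a, and those at the limits of the rule. Others were named after their values were seen. The values of 1 member that this rule names are not reported here. No 2 of the 1081 pairs of libraries were alike within counting error (lowest chi-square per degree of freedom 8.4). The test was checked on simulated counts. Both simulated C2KO pools were drawn from the same mean levels, so the check does not cover C2KO pools that differ from each other. Alternatives used DESeq2 1.42.0, limma 3.58.1, other scalings, filters, CPM limits, fibres as replicates and each pool left out. Promoter windows came from RefSeq (GRCm38.p6). Depth, in total gene counts, was 56732442 to 131497320 per pool.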

Additional observations from a re-analysis of the deposited data

Results flagged for a closer look

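Tmem87a differed between the C2KO prefixes in the direct test of one against the other. The log2 difference of 740 against 2445 was -2.61 ± 0.167 (edgeR adjusted p = 0.00823), and all 10 fibres of 740 were below all 10 fibres of 2445. Of the 80 members, Tmem87a alone was called in that test. The prefixes also differed in Y-linked and Xist counts and, in part, in sequencing run. The part of sex in this difference was not tested, and within the run that held both prefixes the difference was -2.56.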

How the results depend on the processing

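No paired analysis was possible because the labels give fibres no replicate numbers shared between genotypes. With 1 of the 5 pools left out in turn, called members ran from 0 to 8, separated members from 42 to 63 and the median log2 fold change from -0.072 to -0.034. The 8 calls came without C2KO pool 2445, where 2.62% of all tested genes were called, and Tmem87a, Pla2g4e, Hypk, Spata5l1, Ppip5k1, Ccndbp1, Ehd4 and Adal were the members. DESeq2 called 8 members, fibres taken as replicates 14 (4.78% of all tested genes), which makes p too small, and fibres with run as a covariate 2 (Tmem87a and Pla2g4e, against 0.404% of all tested genes), with a median of -0.11, where that of all genes was -0.037. A mean limit of 10 CPM left 24 separated members. Shares of separated genes over all tested genes are not given for these settings. With 1 pool fewer, pools separate more easily for any gene, so those counts cannot be compared with that over all 5 pools. The cause of these shifts was not tested beyond the smaller number of pools or members that they use. The other settings for these values, namely DESeq2 size factors, total count scaling, no filter, limma-voom, no fold threshold, CPM limits of 0.5 and 5, members without shared exon bases, members at 1 CPM or more in both genotypes, and members without Fbn1, Fgf7, B2m and Sirpa or pool 740 without its fibre highest in fibroblast markers (these last 3 chosen after seeing the data), stayed within 1.5 times the count or 1 SD of the median.

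For 740 against 2445, calls ran from 0 to 2 with a WT pool left out, with 2 without WT pool 1 (Tmem87a and Fbn1, against 1.49% of all tested genes) and 0 without WT pool 2 or 3. There were 2 (Tmem87a and Pla2g4e, against 0.659%) without the filter on low counts, and 6 with fibres as replicates, against 5.26%. A fit chosen after seeing the data cut pool 740 to its fibres of the run with both prefixes. Over that fit and the alternatives, Tmem87a stayed between -2.63 and -2.47 on the log2 scale.

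Values that crossed 0 were not called, but not all were small. Over all settings, C2KO against WT ran from -6.34 to 0.38 in Cep152, which is just inside the CPM limit. With run as a covariate, C2KO against WT turned to -0.20 in Polr1b, -0.50 in Tubgcp4, -0.01 in Serf2 and -0.21 in Stard7. That setting, in which 1 C2KO fibre shares a run with WT fibres, also moved Tmem87a to -4.46, Pla2g4e to -2.18, Ehd4 to 2.34, Dusp2 to 2.40, Ccndbp1 to -0.80, Ppip5k1 to -0.16, Fahd2a to -0.022, B2m to 0.18, Pdia3 to 0.097, Snrnp200 to -0.11 and Zfp106 to -0.099. Without C2KO pool 740, Hypk was at -0.42 and B2m at 0.30, and without WT pool 1 Dusp2 was at 1.88. With 1 pool left out, it ran from -0.046 to 0.10 in Serf2, -0.44 to 0.12 in Sord, -0.08 to 0.14 in Trp53bp1, -0.29 to 0.081 in Trpm7, -0.07 to 0.017 in Vps39, -0.037 to 0.091 in Ganc and -0.77 to 0.38 in Cep152. Between the C2KO pools, total count scaling, which moved the median of all genes to 0.15, gave 0.13 in Lrrc57, 0.039 in Polr1b, 0.097 in Serf2, 0.033 in Capn3 and 0.081 in 1500011K16Rik. Fibres as replicates gave 0.035 in Lrrc57 and 1.8e-05 in Serf2, no filter gave -0.0066 in Tubgcp4 and -0.0046 in Vps39, and the run with both prefixes alone gave -0.19 in Dusp2 and -0.28 in Ehd4. Precision is limited by the small number of pools and mice.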
